A study of Homo sapiens with 3 samples.

Results

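The members described here were 999 gene probes of a 4x44K human expression array that the manufacturer printed 10 times each, compared between Huh7 cells given chlorogenic acid (CA) at 100 µM and Huh7 cells given it at 50 µM. They were chosen by the array's layout, out of 34127 gene probes, of which the other 33128 were printed once. A second step selected on signal: a member was kept where at least 0.5 of its usable spots were marked well above background by the scanner software on both CA arrays, which left 808 of 999. That choice used the brightness of the spots but not the difference between the arrays. Every difference below is a description of 1 array against 1 array, and the genes described first were picked by that difference itself.

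Huh7 is a human hepatocellular carcinoma line, and CA is a polyphenol ester of caffeic and quinic acids found in coffee and other plants. Cells had received CA for 24 h at 50 or 100 µM, or were untreated, and vehicle (DMSO) stands as the untreated control in the methods. In the paper, microarrays were run to look for mechanisms behind the changes in cell behaviour under CA. The paper reads those changes as differentiation, which was not tested here. Each of the 3 groups was hybridised to 1 one-colour array, and all arrays lay on 1 slide. The untreated values are printed beside those of the CA arrays for orientation. A difference between CA 100 µM and CA 50 µM and a difference between CA 50 µM and untreated share the CA 50 µM array, so nothing was read from their relation.

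An Agilent array measures an RNA through a labelled copy bound to a short oligonucleotide probe, and the brightness of the spot stands for the amount of that RNA. Printing a probe at 10 scattered places gives 10 readings of 1 hybridised sample. Their spread therefore covers printing, hybridisation and scanning across the slide. It does not cover the spread between cultures, which was not measured with 1 array per group, and no p-value could be given.

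Defining hepatocyte markers were checked against the label. ALB, the main plasma protein made by hepatocytes, and AFP, its fetal counterpart, gave processed signals of 100920.2 and 83766.3 on the CA 100 µM array, among probes printed once. Of 58 genes for hepatocyte plasma proteins with a probe, 51 were well above background on the CA 50 µM array and 52 on the CA 100 µM array. For leukocyte markers the numbers were 27 and 30 of 47 genes, for endothelial and fibroblast markers 10 and 11 of 20, and for neural markers 13 and 12 of 31, and their part in any difference was not tested. The leukocyte gene PTPRC read at most 305.2 over its 4 probes on the CA 100 µM array. The samples were cultures of the Huh7 line, and signals of these markers were not read as the presence of other cell types. In such bulk samples, fewer cells with an RNA and less of it per cell cannot be told apart.

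The CA 100 µM array carried areas in which probes that were dim on the other arrays appeared bright. These disturbed areas held 2460 of its 43118 gene spots, against 38 on the CA 50 µM array and 60 on the untreated array. Of the 9990 spots of replicated probes, 575 lay inside them on the CA 100 µM array and 9 on the CA 50 µM array. No kept member had more than 3 of its 10 spots there.

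Spot values were put on the log2 scale and lowered by the log2 of their own array's 75th percentile, which stood at 1207.4 for CA 50 µM and 1248.8 for CA 100 µM. A member's level is the median over its usable spots. Signals are printed before this scaling, so that the ratio of the CA signals differs slightly from the log2 difference printed beside them. The untreated array's 75th percentile was lower, 1058.8, so a printed untreated signal cannot be set directly against those of the CA arrays. NFKBIA, for example, read 8523 untreated and 9386 at CA 100 µM before scaling. Its scaled log2 levels were 3.01 and 2.91, the other order. Of the 808 kept members, 793 were well above background on every usable spot of both arrays, 793 had a gene symbol, and 807 also passed the same filter on the untreated array. Between 4 and 10 spots were usable per member on the CA 50 µM array and between 6 and 10 on the CA 100 µM array. Most of the kept members gave closely matching spots: the SD over spots had a median of 0.05 on the CA 50 µM array and 0.06 on the CA 100 µM array on the log2 scale.

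The remaining 191 members were accounted for as follows. On both arrays 173 were not well above background, 13 passed on the CA 50 µM array alone and 5 on the CA 100 µM array alone. Just inside the limit were CD200, a membrane glycoprotein, with 4 of 8 usable CA 100 µM spots above background, UGT3A1, a glycosyltransferase, with 5 of 8, and RBMS3, an RNA-binding protein, with 7 of 10. Just outside it were OR51G1, an olfactory receptor, TLR1, a receptor for bacterial lipopeptides, and CLC, the Charcot-Leyden crystal protein, each with 3 of 9. Their signals lay between 10.8 and 19.4 on the CA arrays, near the lower end of what the arrays resolved.

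Differences between the CA arrays were small for almost all replicated probes. The log2 difference, CA 100 µM minus CA 50 µM, had a median of 0.03 and an SD of 0.18 over the 808 kept members, and it ran from -1.45 to 0.91. In 743 members, or 91.96%, it was smaller than 0.3 in size. At least 1.5-fold higher at CA 100 µM were 6 members, HBB, SPP1, PLAU, ZNF185 and CTNNB1 among them, and 3 were at least as much lower, ART4 and ACTN4 among them. Over all 22453 gene probes that passed the same filter the shares were 1.63% higher and 1.99% lower, against 0.743% and 0.371% of the replicated probes, whose values rest on more spots than most of those probes. Beyond 2-fold there were 0 members on the higher side and 1 on the lower side. With the members' own median set to 0 the counts past 1.5-fold were 4 higher and 4 lower, with PLAU, SPP1 and HBB among the higher ones.

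HBB, the beta chain of haemoglobin, stood highest. Its processed signal was 49.9 on the untreated array, 68.7 at CA 50 µM and 133 at CA 100 µM, medians over 10 spots on each CA array. The spots did not overlap: they ran from 63.8 to 77.9 at CA 50 µM and from 127.7 to 138.9 at CA 100 µM. The log2 difference was 0.91, with an SD over spots of 0.09 and 0.04. It was 0.92 from the spots in the low-numbered rows of the array and 0.88 from those in the high-numbered rows. With a normal-exponential background correction it was 0.54, below 1.5-fold.

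SPP1 and PLAU followed. SPP1 encodes osteopontin, a secreted phosphoprotein that binds integrins, and read 336 untreated, 248 at CA 50 µM and 414 at CA 100 µM, a log2 difference of 0.69 (SD over spots 0.11 and 0.17). PLAU, the urokinase plasminogen activator, read 519, 361 and 582 in the same order, a log2 difference of 0.64 (SD 0.11 and 0.16). In both genes every CA 100 µM spot lay above every CA 50 µM spot, and the CA 50 µM array was the lowest of the arrays. Picking genes by a high difference favours a low CA 50 µM value, so no dose pattern was read from it. A further PLAU probe, printed once, was well above background on the CA 100 µM array alone, at 29.8 against 7.4 at CA 50 µM and 5.9 untreated.

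CTNNB1, beta-catenin, which joins cadherins to actin and carries the canonical Wnt signal, gave tight spots and probes that went opposite ways. The replicated probe read 2341 untreated, 1136 at CA 50 µM and 1769 at CA 100 µM, over 9 usable spots on each CA array. The log2 difference was 0.59, just past 1.5-fold, with an SD over spots of 0.06 and 0.04 and no overlap. A second CTNNB1 probe, printed once outside the disturbed areas, read 47.5, 213.6 and 99.7, a log2 difference of -1.15. The sign of the difference between the CA arrays for this gene thus depended on the probe, and levels of unlike probes cannot be set against each other.

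ZNF185 passed 1.5-fold with overlapping spots. A LIM domain protein associated with actin, it read 22.6 untreated, 18.4 at CA 50 µM and 28.8 at CA 100 µM, a log2 difference of 0.60 with an SD over spots of 0.18 and 0.28. Its signal lies near the low end of the array, and the spots of 1 array reached into the range of the other. With a normal-exponential background correction the difference was 0.13.

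The other genes among the 10 highest lay below 1.5-fold, all without overlap of spots. BBX, an HMG box protein, read 74.4 untreated, 94.1 at CA 50 µM and 143 at CA 100 µM, a log2 difference of 0.56, and a second BBX probe printed once read 59.0, 61.9 and 102.5, a difference of 0.68. ERBB2, a receptor tyrosine kinase of the epidermal growth factor receptor family, read 4238, 2905 and 4285, a difference of 0.51 (SD over spots 0.13 and 0.13). ERBB2 was the brightest of the 10 on the CA arrays. PRNP, the cellular prion protein, read 52.5, 34.8 and 51.2, also a difference of 0.51. GSTCD, a protein with a glutathione S-transferase domain, read 20.8, 23.9 and 34.8, a difference of 0.49. Both PRNP and GSTCD are dim, and their lowest differences over the processing alternatives were 0.21 and 0.08.

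At the lower end stood genes of unlike kinds, and no grouping of them was tested. ART4, an ADP-ribosyltransferase of the cell surface, read 252 untreated, 488 at CA 50 µM and 317 at CA 100 µM, a log2 difference of -0.67. Its spots overlapped and were among the most scattered of all members, with an SD of 0.27 and 0.48, and 2 of the CA 100 µM spots lay in disturbed areas. ACTN4, an alpha-actinin that crosslinks actin filaments, read 1895, 3911 and 2684, a difference of -0.59 without overlap (SD 0.05 and 0.07). Of these genes, ACTN4 combined a bright signal with a narrow spread, but it only just passed 1.5-fold. Its CA 100 µM spots also included 2 in disturbed areas. From the low-numbered rows its difference was -0.57, short of 1.5-fold.

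TGFBRAP1, which binds receptors for transforming growth factor beta, read 264 untreated, 540 at CA 50 µM and 373 at CA 100 µM, a log2 difference of -0.58. BCL2L1, the survival factor Bcl-x, read 127, 235 and 168, a difference of -0.53. Neither of these genes' spots overlapped between the CA arrays, nor did those of the next 3 genes. ADAMTSL4, a secreted matrix protein, read 544, 775 and 561, a difference of -0.51, while its 2 probes printed once gave -0.08 and -0.09. ESPN, espin, a bundler of actin filaments, read 288, 487 and 355, a difference of -0.51. MAPK3, the kinase ERK1, read 79.5, 158 and 116, a difference of -0.50. In each of these 5 genes the CA 50 µM array gave the highest signal of the 3 arrays. Picking genes by a low CA 100 µM minus CA 50 µM difference favours that, so no dose pattern was read from it.

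The other genes among the 10 lowest had mixed spot agreement. RAB5C, a small GTPase of early endosomes, read 254 untreated, 457 at CA 50 µM and 337 at CA 100 µM, a log2 difference of -0.49 without overlap. GPR34, a G protein-coupled receptor, read 18.7, 26.4 and 19.5, also -0.49, and CPLX3, a complexin that binds the membrane fusion machinery, read 47.7, 77.7 and 57.6, a difference of -0.48. The spots of GPR34 and CPLX3 overlapped, with an SD between 0.29 and 0.41 on either CA array.

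Agreement among spots was a different measure from the size of the change. In 98 members, 12.1% of the 808, every usable CA 100 µM spot lay above every CA 50 µM spot, and in 67, or 8.29%, every one lay below. These 165 members had a median absolute log2 difference of 0.23, the smallest being 0.05, and 159 of them lay within 1.5-fold. The direction of this split rested on how the arrays were scaled: with the members' median set to 0 it was 67 higher and 86 lower, and with a normal-exponential background correction it was 29 and 40. The difference exceeded the combined SD over the spots of both arrays in 433 members, 53.59%, which measures how finely the spots repeat and not how cultures differ.

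Differences were also taken from the low-numbered and the high-numbered rows of the arrays separately. In 805 kept members with usable spots in both, the paired values differed by a median of 0.03, and their Pearson correlation across these members was 0.89, a description over probes that share both arrays.

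The spread depended on signal. In the dimmest 202 members, with mean signals from 16.8 to 266.6, the log2 difference had an SD of 0.25 and the SD over spots a median of 0.09 at CA 50 µM and 0.11 at CA 100 µM. In the brightest 202, from 3593 to 92366, the SD of the difference was 0.11 and the spot SDs 0.04 and 0.05. The median difference also moved with signal, from -0.03 in the dimmest class through 0.01 and 0.03 to 0.07 in the brightest. The 3 brightest members, GSTP1, a glutathione transferase, PPIA, cyclophilin A, and RPS6, a protein of the small ribosomal subunit, had differences of -0.04, -0.10 and 0.04. The most scattered members included, besides ART4, SYK, a kinase of immune receptors, and APLN, which encodes the peptide apelin, with an SD over spots of 0.36 and 0.42 at CA 50 µM and signals of 18.3 and 19.4.

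Probes printed once spread more widely. Of 21645 that passed the filter, 1.66% were at least 1.5-fold higher at CA 100 µM and 2.05% at least 1.5-fold lower, and the log2 difference had an SD of 0.28, against 0.18 for the replicated members. Leaving out probes printed once in a disturbed area of either CA array, a step added after seeing the data, left 20343, of which 0.752% were higher and 2.14% lower, with an SD of 0.26. The number on the higher side went from 359 to 153 probes and that on the lower side from 444 to 436. Nearly all these areas lay on the CA 100 µM array and were defined by spots reading brighter there. A larger drop on the higher side therefore follows from the definition. Single positions of the kept members, without a median over spots, gave 1.0% higher and 0.811% lower over 7397 positions, with an SD of 0.20. The kept members were also brighter, with a median signal of 1239.3 against 395.4 for probes printed once, and the part of this in the narrower spread was not tested.

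Some members had spots on either side of the disturbed areas' borders. In 317 kept members with usable spots both inside and outside the areas of the CA 100 µM array, the difference at inside spots minus that at outside spots had a median of -0.02. In the dimmest class, with 51 such members, it was 0.13, and in the 20 members with a mean signal under 100 it was 0.28. Among these 20 members 17 read brighter inside, and the largest gap over all 317 was 0.75. In the brightest class the median was -0.04 over 99 members. The areas were defined by dim probes reading bright, so that brighter inside spots in dim members follow from that definition and describe its size. Leaving the disturbed spots out gave 6 members at least 1.5-fold higher and 2 lower.

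Gene groups were read by counts and medians, each beside the median of 0.03 over all 808 kept members. Of the groups with at least 5 kept members there were 28, with medians from -0.14 to 0.20, and none held more than 1 member past 1.5-fold. The members are a small share of each group, since they are what the manufacturer printed 10 times, so a group here is a sample of a pathway and not the pathway. In 16 of the 28 groups the median changed sign under at least 1 of 15 other ways of processing, and the furthest from 0 of these was -0.05. These ways reprocess the same 2 arrays, so a kept sign adds no replicate. The groups at the extremes were picked by this same median. Over all kept members the 0.25 and 0.75 quantiles of the difference were -0.07 and 0.11. Of all kept members 20.42% lay apart, the share beside which a group's count of members apart is read.

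Growth factors and their receptor tyrosine kinases had the highest group median, 0.20 over 5 kept of 10 replicated probes. All 5 were above 0, as was the median of all kept members, and they stayed so under each of the 15 alternatives. Of the 5, 0 passed 1.5-fold, and the spots of 2 did not overlap, where 12.1% of all kept members lay apart on that side. These kinases sit at the cell surface and pass growth signals to the MAPK and PI3K cascades. ERBB2 was the highest, and EGFR, the epidermal growth factor receptor, the lowest, at 2310 untreated, 2119 at CA 50 µM and 2367 at CA 100 µM, a difference of 0.11. Other EGFR probes printed once gave 0.24 and -0.45. IGFBP3, a carrier of insulin-like growth factors, read 1133, 1264 and 1540, a difference of 0.24 without overlap. PDGFA, a platelet-derived growth factor chain, and MET, the hepatocyte growth factor receptor, had differences of 0.20 and 0.13 with overlapping spots.

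The actin cytoskeleton and focal adhesion group had the lowest median, -0.14 over 9 members, 6 of them below 0. Actin filaments and focal adhesions anchor cells to the matrix and carry force. ACTN4 was the 1 member past 1.5-fold. ACTB, beta-actin, read 45448 untreated, 64096 at CA 50 µM and 54053 at CA 100 µM, a difference of -0.29 without overlap, and -0.12 at a second probe printed once. ILK, the integrin-linked kinase, was -0.18 without overlap, and SRC, a kinase at adhesions, -0.35 with overlap. ARPC2, a subunit of the Arp2/3 complex, was 0.12 on the higher side without overlap, and the highest was CAV2, caveolin-2, at 0.15 with a second probe at 0.15.

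The TGF-beta, BMP and SMAD group followed with a median of -0.12, and all 5 of its kept members were below 0, here and under each of the 15 alternatives. Its ligand TGFB1, transforming growth factor beta 1, read 47.5 untreated, 96.8 at CA 50 µM and 75.5 at CA 100 µM, a difference of -0.41 without overlap. SMAD4, the common partner of the SMAD signal transducers, read 1324, 1763 and 1675, a difference of -0.12 without overlap. SMAD3, a receptor-regulated SMAD, was the highest at -0.03.

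Notch and Hedgehog genes had a median of -0.06 over 9 members, of which 2 lay apart on the lower side, where 8.29% of all kept members did. Notch receptors are cut by gamma-secretase and then act in the nucleus with Mastermind coactivators. APH1A, a gamma-secretase subunit, was the lowest at 1136 untreated, 1636 at CA 50 µM and 1400 at CA 100 µM, a difference of -0.27 without overlap, and -0.35 at a second probe that lay in a disturbed area. MAML1, a Mastermind coactivator, was -0.19 without overlap. The receptor NOTCH1 and the ligand JAG2 were at -0.23 and -0.26 with overlapping spots, and PSEN2, a presenilin, was the highest at 0.04.

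Among MAPK and immediate early genes the median was -0.03 over 9 members, with 3 apart on the lower side and 0 on the higher, against 8.29% and 12.1% of all kept members. MAPK3 was the lowest. HRAS, a small GTPase upstream of it, read 158 untreated, 276 at CA 50 µM and 234 at CA 100 µM, a difference of -0.29 without overlap. The highest member was SOS2, an exchange factor for RAS, at 0.07. In the PI3K, AKT and mTOR group the median was 0.00 over 7 members. GSK3B, a kinase held in check by AKT, was the lowest at -0.09 without overlap.

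Apoptosis genes had a median of -0.05 over 7 members. Besides BCL2L1, the pore-forming BAX was lower without overlap, at 4552 untreated, 6188 at CA 50 µM and 5714 at CA 100 µM, a difference of -0.16. The highest was TNFSF10, the death ligand TRAIL, at 0.17, with a second probe at 0.15. Wnt and beta-catenin genes had a median of 0.05 over 6 members. CTNNB1 was the highest and TCF7, a DNA-binding partner of beta-catenin, the lowest, at 190, 307 and 255, a difference of -0.31 without overlap.

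Cell cycle groups stayed close to the median of all members. DNA replication and S phase genes had a median of 0.02 over 10 members. Of these 0 passed 1.5-fold and 1 lay apart, where 20.42% of all kept members did. TOP2A, the topoisomerase of dividing cells, was that one and the highest, at 10168 untreated, 11818 at CA 50 µM and 13207 at CA 100 µM, a difference of 0.11. E2F1, a transcription factor of S phase entry, was the lowest at -0.12. For mitosis and G2/M genes the median was -0.01 over 7 members, from ATM, a damage checkpoint kinase, at -0.19 to INCENP, a chromosomal passenger protein, at 0.17. G1 cyclins, CDKs and inhibitors had a median of 0.05 over 5, from CCND1, cyclin D1, at -0.15 to MDM2, a ubiquitin ligase, at 0.15. All members of these last 2 groups had overlapping spots, beside that share of 20.42% apart over all kept members.

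DNA repair genes had a median of 0.10 over 9 members, with 0 past 1.5-fold. Every member's spots overlapped, where 20.42% of all kept members lay apart. The highest was BRCA1, of homologous recombination, at 0.17. The tricarboxylic acid cycle and oxidative phosphorylation group had a median of 0.09 over 7 members, with 2 apart on the higher side, where 12.1% of all kept members lay. All 7 were above 0, as they were under 10 of the 15 alternatives, and the median of the brightest class of members was itself 0.07. UQCRC2, a core subunit of respiratory complex III, was the highest at 13512 untreated, 12405 at CA 50 µM and 15062 at CA 100 µM, a difference of 0.23 without overlap. These are bright probes, and with cyclic loess, which takes out a trend with signal, the group's median was 0.07, and over all 15 alternatives it ran from 0.04 to 0.10.

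Metabolic groups of the liver came next. Drug and polyphenol metabolism had a median of 0.03 over 9 members, 2 apart on the higher side and 1 on the lower, against 12.1% and 8.29% of all kept members. CYP2S1, a cytochrome P450, read 96.2 untreated, 166 at CA 50 µM and 131 at CA 100 µM, a difference of -0.38 without overlap, and -0.51 at a second probe. MGST2, a microsomal glutathione transferase, read 14119, 13685 and 16357, a difference of 0.21 without overlap. GSTM3, a cytosolic glutathione transferase, was the other member apart, at 0.16. CYP2S1 and MGST2 belong to the handling of foreign compounds, and they were named because they were the lowest and the highest of the group.

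Cholesterol and fatty acid synthesis had a median of -0.01 over 5 members. TM7SF2, a sterol reductase, was the lowest at 193 untreated, 330 at CA 50 µM and 274 at CA 100 µM, a difference of -0.32 without overlap, and MSMO1, a sterol oxidase, the highest at 0.11. In fatty acid oxidation and ketogenesis the median was 0.00 over 5, from ECHS1, a hydratase of beta-oxidation, at -0.07 to ACOX2, a peroxisomal oxidase of branched chains, at 0.20, all with overlap. Coagulation and complement had a median of 0.04 over 6 members. PLAU was its highest. Among hepatocyte plasma proteins 4 members were kept, and APOA1, the main protein of high-density lipoprotein, was the 1 apart, at 6388, 11679 and 9939, a difference of -0.28.

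Inflammatory and matrix genes were thinly covered. Of 22 replicated probes for cytokines, chemokines and NF-kB, 8 were kept, with a median of 0.04. RELA, the p65 subunit of NF-kB, was the lowest at 461 untreated, 780 at CA 50 µM and 655 at CA 100 µM, a difference of -0.30 without overlap and of -0.23 at a second probe. NFKBIA, the inhibitor that holds NF-kB in the cytoplasm, was the highest at 8523, 7754 and 9386, a difference of 0.23 without overlap. RELA and NFKBIA were named as the ends of the group, so nothing was read from their lying on opposite sides. Integrins and extracellular matrix had a median of 0.04 over 6 members, from ITGAM, an integrin chain of myeloid cells, at -0.40 to SPP1. G protein, calcium and cAMP signalling had a median of 0.01 over 6, and PRKCD, a protein kinase C, was the lowest at -0.17.

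Groups of stress and protein turnover held no member apart, where 20.42% of all kept members lay apart. The unfolded protein and ATF4 response had a median of 0.01 over 5, from ATF5 at -0.16 to CEBPB at 0.05, both basic leucine zipper factors. Heat shock and chaperones had a median of 0.06 over 6, from PPIA to CCT4, a subunit of the chaperonin TRiC, at 0.14. NRF2 and antioxidant defence stood at -0.03 over 5, from KEAP1, the adaptor that holds NRF2 down, at -0.05 to PRDX4, a peroxiredoxin, at 0.19. The proteasome and ubiquitin group stood at -0.01 over 5, from KEAP1 to PSMD7, a proteasome lid subunit, at 0.14. All of their members lay within 1.5-fold.

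Ribosomal proteins and translation factors had a median of 0.06 over 5, from RPLP0, a stalk protein of the large subunit, at -0.15 to NARS1, asparaginyl-tRNA synthetase, at 0.16. RNA polymerase, splicing and RNA binding also had 0.06 over 5, from TAF1, a TFIID subunit, at 0.01 to SNRPD1, a spliceosomal Sm protein, at 0.18, the latter without overlap. Spots of the other 4 members of that group overlapped.

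Reference genes, often used to normalise PCR, gave a scale for these differences. Their median was 0.02 over 11 members, from -0.29 to 0.21, with 0 past 1.5-fold. ACTB was the lowest, and GAPDH, a glycolytic enzyme, read 39233 untreated, 51483 at CA 50 µM and 47122 at CA 100 µM, a difference of -0.18 without overlap. GUSB, a lysosomal glucuronidase, was the highest at 0.21 without overlap. The other 8 had overlapping spots, among them HPRT1 at 0.10, B2M at 0.05, TFRC at 0.04, PGK1 at 0.03, TBP at 0.02, PPIA at -0.10 and RPLP0 at -0.15.

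Kept members included 5 of the genes the study followed. For MYC the study reported lower RNA with CA than in untreated cells, by microarray and PCR, and lower protein. The MYC difference here is between CA doses, another comparison, and comes from the study's own arrays, so it is no independent evidence. For NFKBIA, RB1 and STAT3 the study measured SUMOylation of the proteins, and for SUMO3, together with SUMO2, protein. The RNA values here measure neither. STAT3, a transcription factor activated by cytokine receptors, read 307 untreated, 513 at CA 50 µM and 404 at CA 100 µM, a difference of -0.40 without overlap (SD over spots 0.06 and 0.07), and a second probe printed once gave -0.22. NFKBIA stood at 0.23, as above. The others had overlapping spots. MYC, the oncogenic transcription factor, read 5832, 6813 and 7224, a difference of 0.04. After scaling, its log2 difference from untreated was 0.03 at CA 50 µM and 0.07 at CA 100 µM, so this probe read no lower with CA. RB1, the retinoblastoma protein, was at 0.08, and SUMO3, a small ubiquitin-like modifier, at -0.03.

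Other probes of the same genes gave a limited cross-check. For 200 kept members 1 or more probes printed once for the same gene were above background on both arrays, 232 pairs in all. The Pearson correlation of the differences was 0.20 over these pairs, and 0.21 over the 219 pairs outside the disturbed areas, a description over pairs that share both arrays. The median gap within these 219 pairs was 0.11. In 15 of them the member differed by 0.3 or more, and in 11 of these the other probe had the same sign. Further probes printed once for named genes gave -0.08 for ATM, 0.12 for SNRPD1, 0.04 for TAF1 and -0.21 for RPLP0. Those of MDM2 gave 0.16, in a disturbed area, and 0.02, and those of PPIA ran from -0.19 to -0.03. A further probe of CCT4, in a disturbed area, gave -0.11 against 0.14. For ESPN, CD200, UGT3A1 and TCF7 the further probe was not well above background on both CA arrays.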

How the data were processed

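RNA of Huh7 cells was measured on 3 one-colour Agilent arrays, 1 per group, taken from the labels. The authors deposited the scanner output of Feature Extraction 11.0.1.1, whose processed signal is a background-subtracted intensity, and a table of log2 values they had normalized to the 75th percentile. From the deposited intensity, log2 of each gene spot without a non-uniformity or population outlier flag was taken, minus the array's 75th percentile. These flags removed 536 and 546 of 9990 spots on the CA 50 µM and CA 100 µM arrays. A member's value was the median over its spots. Members were named through RefSeq accessions (GRCh38.p14), which matched 976 of 999. Calls were descriptive, at 1.5-fold or by non-overlap of spots, with no test. Processing was done in Python 3.11 and limma 3.58.1, and the summary was tested on simulated data.

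Windows of 17 rows by 7 columns were called disturbed where at least 5 spots, and at least 25.0% of those dim on both other arrays, were 4-fold brighter. The members, gene lists and the rule for named genes were chosen with earlier results of these data known. The rule named the 10 highest and 10 lowest kept members, study and reference genes, the ends of each list of 5 or more kept members and any past 1.5-fold, the 3 brightest, the 3 most scattered, and 3 on either side of the filter. Some genes picked by this rule are not reported here. Processing alternatives were a mean over spots, other normalizations and background corrections, other filters and other sets of spots. The number of arrays limits the precision, and all arrays shared 1 slide, so slide and scan could not be fitted.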

Additional observations from a re-analysis of the deposited data

How the results depend on the processing

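No paired analysis was possible because each group has 1 array, which also leaves no replicate to drop. The 6 members at least 1.5-fold higher became 1 with a normal-exponential background correction, 10 with the filter on 1 array, 13 with no filter on dim probes and 0 at 2-fold. The 3 at least 1.5-fold lower became 8 with the filter on 1 array, 19 with no filter, 5 from the high-numbered rows and 1 at 2-fold. The 98 members whose spots did not overlap on the higher side became 29 with the normal-exponential correction, 203 from the low-numbered rows and 184 from the high-numbered rows, where fewer spots are compared. The 67 on the lower side became 40, 120 and 119 in the same order. Under the other alternatives these counts stayed within 1.5 times, and the SD and the median of the difference over members moved by less than the combined spot spread under all of them. Of the 1240 values of named genes under an alternative, 19 moved by more than the gene's spot spread, and 0 of the genes past 1.5-fold changed sign. For 12 of 83 named genes, the largest at -0.08, the sign changed under at least 1 alternative. Among 420 group medians 4 moved by more than the members' spot spread. The authors' table has no spots, so it gave no count of overlap. Signal over background limits the dimmest class most.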

Other observations

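Among the 18 members that were well above background on 1 CA array alone, a bound at or above 1.5-fold was reached by 2. These members passed the filter on the brighter array only, so the direction of each follows from that choice. PTGS2, the inducible cyclooxygenase, had a signal of 25.1 at CA 100 µM, with 10 of 10 spots above background. At CA 50 µM it had 11.9, with 1 of 10. Its bound was 1.82-fold higher at CA 100 µM, and its untreated signal was 15.9. SIX6, a homeobox factor of the eye and pituitary, had 25.4 at CA 50 µM on 10 of 10 spots and 13.7 at CA 100 µM on 1 of 9. Its bound was 1.77-fold higher at CA 50 µM, and its untreated signal was 15.8. Each bound sets the brighter array's value against the higher of the dim probe's own value and the lowest signal of any probe well above background on the other array, which was 13.3 at CA 50 µM and 14.8 at CA 100 µM. Both genes are dim on every array, and with 1 array per group these are values of single samples.

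IL6 and IL10, an inflammatory and an anti-inflammatory cytokine, were each above background on 1 CA array. IL6 had 16.7 at CA 100 µM and 12.8 at CA 50 µM, and IL10 had 10.2 and 18.1. Their bounds were 1.21-fold and 1.26-fold in opposite directions, below 1.5-fold. Untreated signals were 20.7 for IL6, higher than on either CA array, and 17.2 for IL10. Both genes are dim and were picked from the members that passed on 1 CA array alone. Their directions follow from that filter, so nothing was read from them.

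SRRT, a factor of RNA processing, and MIEF1, a mitochondrial dynamics protein, each had 2 replicated probes. Those of SRRT differed by -0.35 and -0.01 and those of MIEF1 by -0.05 and 0.15 between the CA arrays.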
